A study of Mus musculus with 12 samples.

Results

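The expression of 38 genes that encode histone modifiers and chromatin remodellers was examined in mouse cortex after loss of a DNA methyltransferase. The genes were taken from a list of symbols, with the entry of highest mean kept where a symbol has several. No measured value was a rule of choice for the list, but earlier results of these data were known when it was chosen. They are the 11 histone deacetylases Hdac1 to Hdac11, the Polycomb repressive complex 2 (PRC2) genes Ezh1, Ezh2, Eed and Suz12, the lysine demethylases Kdm1a, Kdm4a and Kdm6b, and Setdb1, Trim28, Ehmt1, Ehmt2, Suv39h1 and Suv39h2, which write histone H3 lysine 9 methylation or recruit its writers. The list also holds the heterochromatin protein genes Cbx1, Cbx3 and Cbx5, the remodellers Hells, Smarca2, Smarca4, Smarcc1, Chd7 and Chd8, the acetyltransferases Crebbp, Ep300, Kat2a and Kat2b, and the arginine methyltransferase Prmt5. All 38 were found, with 1 entry each, among 23354 gene symbols, and all 38 passed the filter on low values that left 14075 symbols for testing.

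RNA was sequenced from whole cortices of C57BL/6 mice at the age of 16 days after birth, with 4 groups and 3 mice in each. The Dnmt1 conditional knockout (CKO) carried Olig1cre/+;Dnmt1flox/flox and its littermate control Olig1+/+;Dnmt1flox/flox, and the Dnmt3a CKO carried Olig1cre/+;Dnmt3aflox/flox with the littermate control Olig1+/+;Dnmt3aflox/flox. Controls therefore also held the floxed alleles, and no group had Cre without a floxed gene. Cre is expressed from the Olig1 locus, which is active in the oligodendrocyte lineage, so both CKO groups also carried only 1 intact Olig1 allele, and the other cells of the cortex kept the methyltransferase genes. In such bulk tissue, fewer cells of a type and less RNA per cell cannot be told apart.

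DNA methylation and histone modification are layered systems of gene control. DNMT1 copies CpG methylation to the new strand after replication and DNMT3A sets new methylation, whereas histone deacetylases, PRC2 and the H3K9 methyltransferases establish repressed chromatin, and acetyltransferases and remodellers of the SWI/SNF and CHD families open or move nucleosomes. In the oligodendrocyte lineage, histone deacetylation, PRC2 activity, H3K9 methylation and remodelling by Smarca4, Chd7 and Chd8 are known to take part in the passage from progenitor to myelinating cell.

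The labels were first checked against the targeted genes. In FPKM (fragments per kilobase of transcript and per unit of mapped fragments, which corrects for length and depth), Dnmt1 was 10.6, 10.2 and 9.78 in the Dnmt1 controls and 7.26, 9.11 and 9.09 in the Dnmt1 CKO cortices, with no overlap but without passing the test (log2 fold change -0.27 ± 0.10 SE, adjusted p = 0.29 with limma). The value was -0.16 without Dnmt1 CKO replicate 1, the lowest library, and -0.32 without Dnmt1 CKO replicate 2. Dnmt3a was 31.1 and 28.7 FPKM in Dnmt3a controls 1 and 3, 16.9 in the library labelled Dnmt3a control replicate 2, and 13.6, 14.2 and 15.4 in the Dnmt3a CKO cortices. Under the labels given, Dnmt3a did not pass the test in its own line (log2 fold change -0.78 ± 0.23 SE, adjusted p = 0.66 with limma). Without the library labelled Dnmt3a control replicate 2 it was -1.05 and also did not pass (adjusted p = 0.12, limma). The library labelled Dnmt3a control replicate 2 thus lay near the CKO level and goes against its label on this gene. On Olig1, the locus that carries Cre, it lay with the controls, at 49.8 FPKM. Olig1 was 48.4 and 44.1 FPKM in Dnmt3a controls 1 and 3, and 30.6, 38.8 and 32.2 FPKM in the Dnmt3a CKO cortices. Dnmt3a and Olig1 thus disagree on this label, and the main values of the Dnmt3a line are also given without that library. Cell type markers moved in the Dnmt1 line: 12 of 12 markers of myelinating oligodendrocytes fell, with a median log2 fold change of -1.95 and a summed level of 1983 to 2306 FPKM in controls against 585 to 681 in CKO cortices, and 8 of 10 markers of progenitors and the lineage fell. Among these 8 was Olig1 (-1.19), of which both CKO groups carried only 1 intact allele. Its value in the Dnmt3a line was -0.49, also without overlap. Gfap of 10 astrocyte markers and C1qa, C1qb and Trem2 of 10 microglia markers rose, while 0 of 10 neuronal, 0 of 8 endothelial and 0 of 16 tested cell cycle genes passed the test. The rise was not shared by these lists as a whole: 6 of 10 astrocyte values lay below 0, among them Aqp4 at -0.28, Gja1 at -0.11 and Slc1a2 at -0.11 without overlap, 3 of 10 microglia values did, among them Itgam at -0.18 without overlap, and 7 of 8 endothelial values did. In the Dnmt3a line none of the 81 markers tested passed, with or without the library labelled Dnmt3a control replicate 2, but only 2 of all symbols did (0.0142%). All 10 astrocyte values there lay above 0, and 4 of them were without overlap (40%, beside 12.8% of all symbols). Of the 10 progenitor and lineage markers, 3 were without overlap, Bmp4 higher (0.42) and Neu4 (-0.21) and Olig1 lower. Of the 12 myelinating oligodendrocyte markers, 0 were without overlap.

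The 38 genes were detected in every library, and none had a value of 0. Of the 38, 19 had a mean of 10 FPKM or more and 4 a mean below 3 FPKM. Their mean over the 12 libraries ran from 0.638 FPKM for Hells, the lymphoid-specific helicase tied to DNA methylation, to 58.2 FPKM for Cbx3, which encodes HP1 gamma, with a median of 10.1. The order by the mean of the 6 control cortices placed Cbx3 first (58.1 ± 3.35 FPKM, SD, n = 6), followed by Hdac11 (50.3 ± 1.35), the SWI/SNF ATPase gene Smarca2 (38.3 ± 2.31), the H3K9 dimethyltransferase gene Ehmt2 (37.4 ± 2.16) and Hdac3 (34.1 ± 1.42). At the other end stood Ezh2 (2.19 ± 0.18), the catalytic PRC2 subunit of dividing cells, Chd7 (1.51 ± 0.16), Suv39h2 (1.18 ± 0.06) and Hells (0.64 ± 0.09). Of the 37 neighbouring pairs in this order, 24 had overlapping ranges of control values, so that for example Smarca2 and Ehmt2 were not separated, nor any neighbouring genes from Smarcc1 down to Suv39h1, whereas each step from Kat2b down to Hells was free of overlap.

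**Figure D1:**
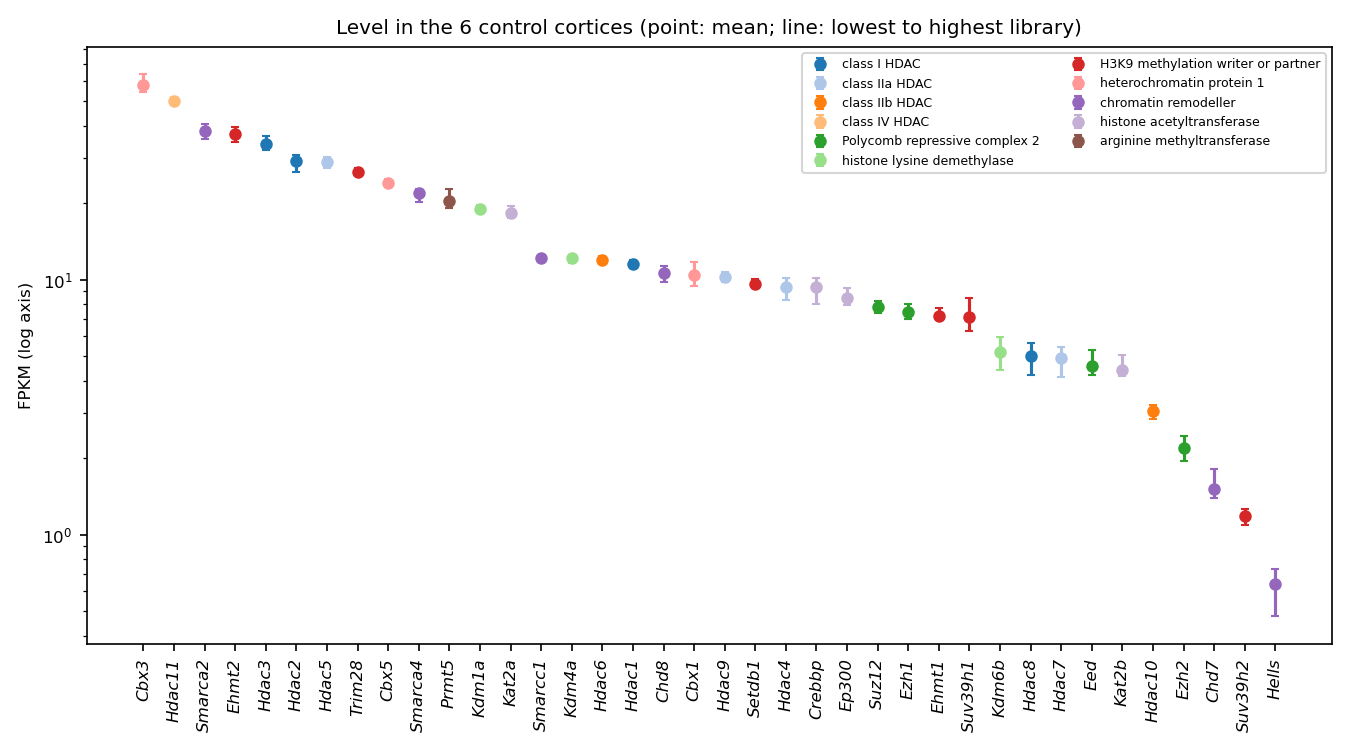
Level of each of the 38 genes in the 6 control cortices, in FPKM on a logarithmic axis, with the point at the mean, the line from the lowest to the highest library, and the color for the role. Cbx3 was highest at 58.1 FPKM and Hells lowest at 0.64, and many neighbours in the middle of the order overlap.

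Related enzymes that carry out the same reaction were present at unequal levels, as ratios of length-normalized values show. In the Dnmt1 controls Hdac2 stood at 2.64 ± 0.05 (SD, n = 3) times the level of Hdac1, Ehmt2 at 5.36 ± 0.40 times Ehmt1, Kat2a at 4.28 ± 0.11 times Kat2b, Ezh1 at 3.33 ± 0.29 times Ezh2, and Smarca2 at 1.76 ± 0.07 times Smarca4. Crebbp and Ep300, which encode the paralogous acetyltransferases CBP and p300, were near parity at 1.06 ± 0.08. Suv39h2 reached only 0.16 ± 0.02 of the level of Suv39h1. The value of Hdac1 is uncertain, since 35.5% of its 50-base words also occur in transcripts of other genes, chiefly Gm10093, and 7 further genes (Hdac4, Hdac11, Suv39h1, Setdb1, Cbx3, Kat2b and Eed) share between 5.82% and 21.6% of theirs.

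In the Dnmt1 line, the comparison asked which chromatin genes changed when Dnmt1 was deleted from the oligodendrocyte lineage. Of the 38 genes, 1 passed the 10% false discovery rate (FDR), Suv39h2, which rose, and none fell. Over all symbols tested, 443 passed (3.15%), 119 of them higher (0.845%) and 324 lower (2.3%).

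Suv39h2 encodes a histone methyltransferase that trimethylates H3K9 in pericentric heterochromatin and is known for its expression in embryo and testis. Its level was 1.26, 1.19 and 1.18 FPKM in the 3 Dnmt1 control cortices and 2.87, 2.21 and 2.09 FPKM in the 3 Dnmt1 CKO cortices. The groups did not overlap, and CKO replicate 1 was the highest of all 12 libraries. The rise was 0.91 ± 0.13 (SE) on the log2(FPKM + 0.1) scale (95% interval 0.60 to 1.22, adjusted p = 0.028 with limma), and the mean went from 1.21 ± 0.04 to 2.39 ± 0.42 FPKM (SD, n = 3). By size it ranked 33 of the 119 genes that rose. An exact permutation test of the 3 against 3 values gave p = 0.1, below which no such test can go.

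The call depended on 1 control library: without Dnmt1 control replicate 2 the fold change was 0.90 but the adjusted p 0.13 with limma, and over all alternatives the adjusted p ran from 0.00054 to 0.13. The Dnmt1 controls were of mixed sex, with summed Y chromosome gene levels of 0.2 to 43.2 FPKM against 34.6 to 41.6 in the CKO cortices. With the level of Xist as a covariate the fold change of Suv39h2 was 0.92 (adjusted p = 0.064, limma). Xist was 0.05, 0.03 and 49.4 FPKM in the Dnmt1 controls and 1.69, 1.80 and 1.85 FPKM in the Dnmt1 CKO cortices. This covariate therefore also follows the genotype, and it does not adjust for sex alone. What part the marker shifts given above have in the rise was not tested.

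In the Dnmt3a line Suv39h2 stayed close to the Dnmt1 control level, at 1.19, 1.15 and 1.09 FPKM in controls and 1.23, 1.17 and 1.21 FPKM in CKO cortices. Thus the 9 libraries outside the Dnmt1 CKO lay between 1.09 and 1.26 FPKM, below the lowest Dnmt1 CKO value of 2.09. The fold change in this line was 0.06 (95% interval -0.11 to 0.24, adjusted p = 0.85, limma) and 0.07 (-0.15 to 0.29) without the library labelled Dnmt3a control replicate 2. The effect in the Dnmt1 line minus that in the Dnmt3a line, tested as an interaction over the 12 libraries, was 0.85 ± 0.15 (SE, 95% interval 0.51 to 1.19, adjusted p = 0.018), and it was 0.84 (adjusted p = 0.047, limma) without the library labelled Dnmt3a control replicate 2.

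**Figure D2:**
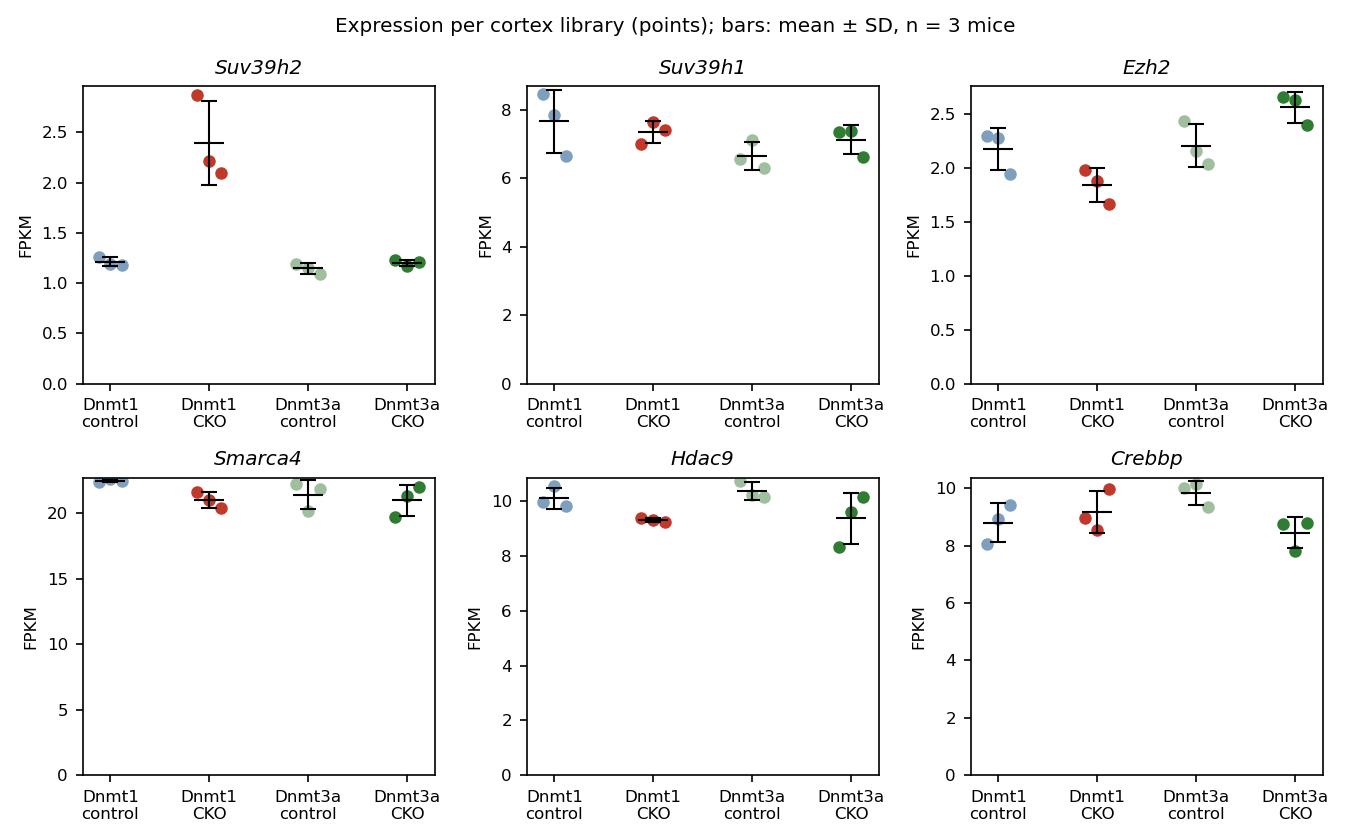
FPKM of 6 genes in each cortex library (points), with bars for the mean ± SD of 3 mice per group and a vertical axis starting at 0 in every panel. Suv39h2 lay between 2.09 and 2.87 in the Dnmt1 CKO cortices and between 1.09 and 1.26 in the other 9, while its paralog Suv39h1 overlapped between groups.

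Suv39h1, the X-linked paralog with the same enzymatic activity, did not pass the test. Its level was 8.47, 7.86 and 6.66 FPKM in Dnmt1 controls and 7.01, 7.64 and 7.41 FPKM in Dnmt1 CKO cortices, with the CKO values inside the control range (log2 fold change -0.05, 95% interval -0.29 to 0.18, adjusted p = 0.86, limma). The ratio of Suv39h2 to Suv39h1 was 0.15, 0.15 and 0.18 in the Dnmt1 controls and 0.41, 0.29 and 0.28 in the Dnmt1 CKO cortices, and 0.16 to 0.18 in the 6 cortices of the Dnmt3a line. Even in the CKO cortices Suv39h2 therefore remained the lower of the pair.

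Suv39h2 lies on the minus strand of chromosome 2 (chr2:3455815-3475031, GRCm38, the assembly also called mm10), and its longest transcript has 6 exons. Of its exonic bases, 9.98% also lie in exons of Dclre1c and Gm13184 on the opposite strand, and the sources used here do not say whether reads were counted by strand, so such reads cannot be told apart. Dclre1c itself was 3.26 to 4.03 FPKM in Dnmt1 controls and 3.31 to 3.72 FPKM in CKO cortices (log2 fold change -0.05, adjusted p = 0.88, limma). Of the other neighbours tested, Hspa14 had a log2 fold change of 0.02, Rpp38 of -0.03, Acbd7 of -0.05, Meig1 of -0.23 and Nmt2 of -0.15, and none passed (adjusted p from 0.25 to 0.96, limma), although the values of Nmt2 did not overlap (14.9 to 16.7 FPKM in Dnmt1 controls, 13.9 to 14.6 FPKM in CKO cortices). Cdnf was too low to be tested, at 0.34, 0.25 and 0.24 FPKM in Dnmt1 controls and 0.43, 0.51 and 0.52 FPKM in CKO cortices, which do not overlap, with 1.79 times the control mean in the CKO.

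The bases before the starts of both Suv39 genes are shown because the enzyme deleted acts on CpG. They are from RefSeq (GRCm38.p6), 5′ to 3′ on the strand of the gene, with each CpG in capitals. The annotations disagree on the starts: the RefSeq start of Suv39h2 lies inside the Ensembl gene, so that 45 of the 250 bases before it belong to that gene and only the 205 bases outside it are shown. Suv39h1 has 2 RefSeq starts, of which the second lies so far inside the Ensembl gene that its whole window does, and only the first is shown.

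Suv39h2, chr2:3475032-3475236, minus strand: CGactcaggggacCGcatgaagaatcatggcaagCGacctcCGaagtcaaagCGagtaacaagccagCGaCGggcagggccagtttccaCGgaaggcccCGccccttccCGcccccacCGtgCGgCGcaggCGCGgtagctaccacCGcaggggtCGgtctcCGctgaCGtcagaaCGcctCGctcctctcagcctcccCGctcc
Suv39h1, first start, chrX:8074761-8075010, minus strand: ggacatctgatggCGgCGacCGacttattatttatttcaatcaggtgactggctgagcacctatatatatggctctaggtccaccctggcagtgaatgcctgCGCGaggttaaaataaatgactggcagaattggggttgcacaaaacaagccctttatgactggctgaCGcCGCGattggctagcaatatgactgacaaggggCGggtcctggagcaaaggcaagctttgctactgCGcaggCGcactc

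The bases shown hold 22 CpG for Suv39h2 and 11 for Suv39h1. Counted over 250 bases before each RefSeq start, whether or not the Ensembl gene reaches into them, the values are 27 for Suv39h2 and 11 and 25 for Suv39h1. Entries were found for 33 of the 38 genes, 42 in all, with a median of 19 CpG against 6 over the 32851 RefSeq entries of the same length, and 7 of the 42 had more CpG than Suv39h2. Of all entries, 8.56% had at least 27. Read on both strands, the letters TGACGTCA of a cAMP response element occur in 1 of the 42 entries, that of Suv39h2. This share of 2.38% is near the 1.55% of all entries. The letters GGGCGG of a GC box occur in 61.9% of the 42 entries and 32.7% of all, and CCAAT in 35.7% and 33.8%. A match of letters is a description of the window, and DNA methylation was not measured in these files.

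The other 37 genes did not pass the test in the Dnmt1 line, and their differences in whole cortex were small. RNA of cells outside the Olig1 lineage also enters these values, and the change within the deleted cells was not measured. Their log2 fold changes ran from -0.23 (Ezh2) to 0.09 (Ezh1), with a smallest adjusted p of 0.22 (limma), and the 95% interval lay within ± 0.25 for 26 and within ± 0.5 for all 37. Among the 38, 3 had an unadjusted p under 0.05 in limma, namely Suv39h2, Smarca4 and Hdac9, against 15% of all symbols. The median over the 38 was -0.04 and over all symbols -0.02, and 26 of the 38 values lay below 0 (58.6% of all symbols did). Groups did not overlap for 7 of the 38, 2 higher (Suv39h2 and Ezh1) and 5 lower (Hdac9, Ehmt1, Smarca4, Chd7 and Kat2b), beside 20.8% of all symbols.

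**Figure D3:**
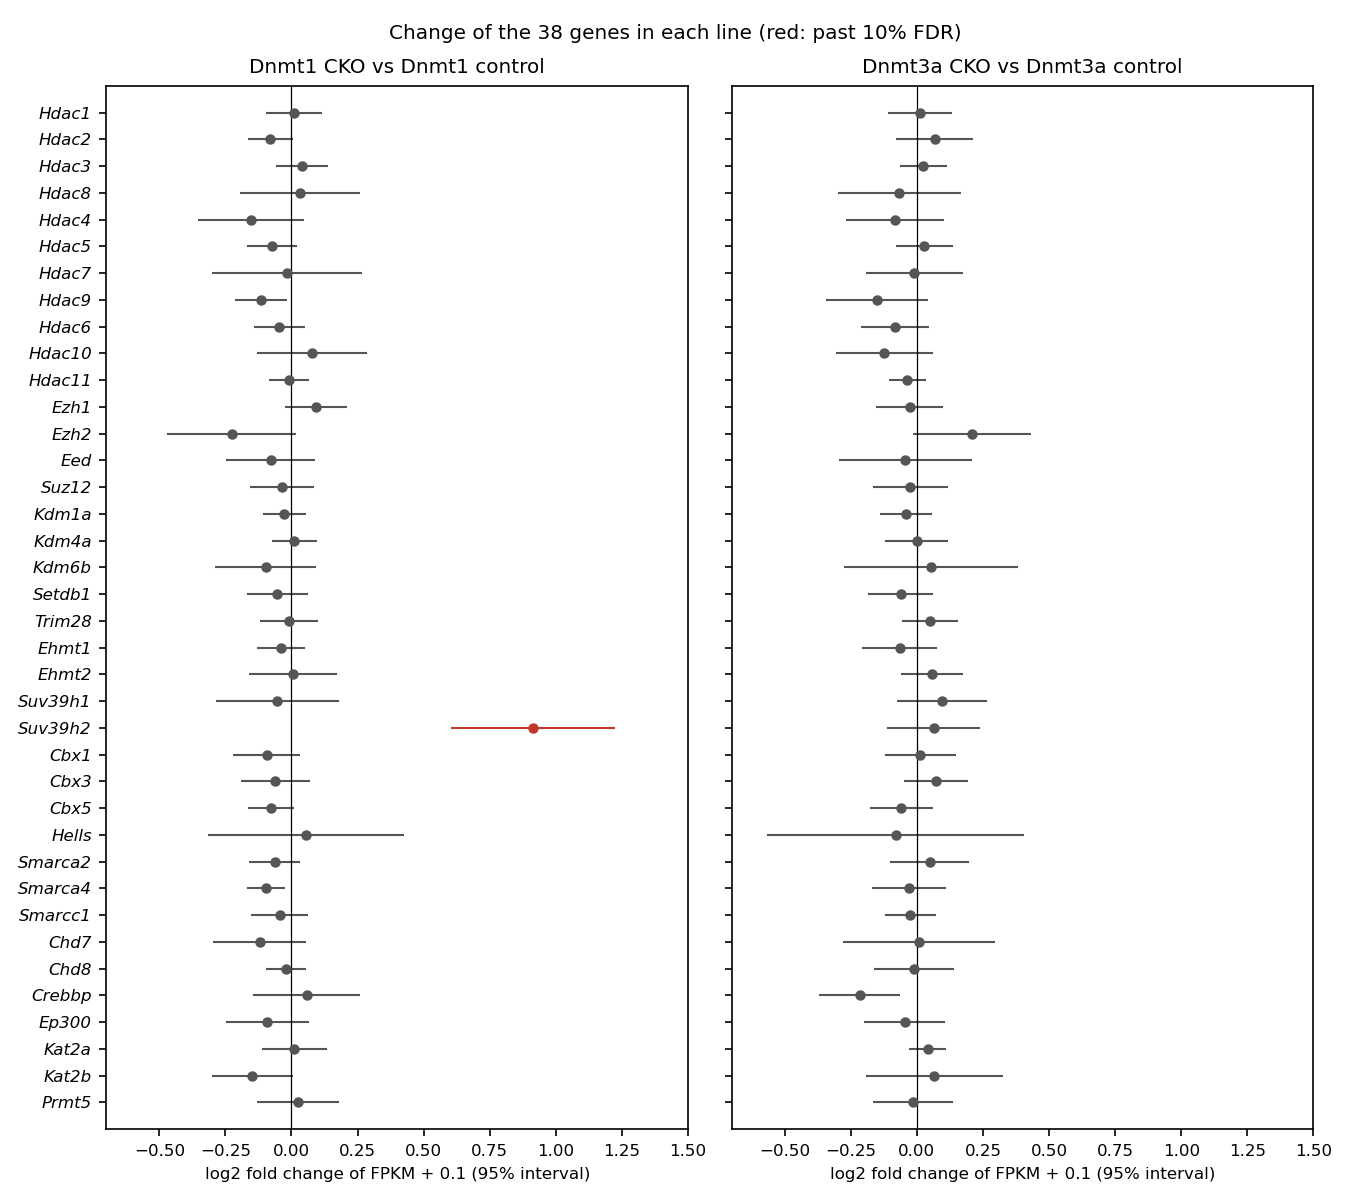
Log2 fold change of FPKM + 0.1 with its 95% interval for each of the 38 genes, CKO against control, in the Dnmt1 line and in the Dnmt3a line (red, past 10% FDR). Suv39h2 in the Dnmt1 line stands at 0.91, and the other 37 genes there run from -0.23 to 0.09.

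Among the remodellers, Smarca4, which encodes the SWI/SNF ATPase BRG1, was 22.4, 22.6 and 22.5 FPKM in Dnmt1 controls and 21.62, 21.03 and 20.41 FPKM in Dnmt1 CKO cortices. Every CKO value lay below the controls, yet the distance was only -0.10 ± 0.03 (SE) on the log2 scale (adjusted p = 0.22, limma). The Dnmt3a controls at 22.2, 20.2 and 21.9 FPKM and the Dnmt3a CKO cortices at 19.7, 21.3 and 22.0 FPKM overlapped. Chd7, a remodeller of neural and oligodendrocyte progenitors, ran from 1.39 to 1.55 FPKM in Dnmt1 controls and from 1.27 to 1.38 FPKM in CKO cortices (log2 fold change -0.12, adjusted p = 0.51). Smarca2, Smarcc1, Chd8 and Hells had log2 fold changes between -0.06 and 0.05, with the widest interval for Hells (-0.32 to 0.42).

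Among the deacetylases, the class I genes Hdac1, Hdac2, Hdac3 and Hdac8, which supply the catalytic subunits of the main corepressor complexes, differed by -0.08 to 0.04 on the log2 scale. The class IIa genes Hdac4, Hdac5, Hdac7 and Hdac9, which encode signal-dependent deacetylases that shuttle between nucleus and cytoplasm, all had values below 0, from -0.15 to -0.02. Hdac9 was 9.96, 10.6 and 9.82 FPKM in Dnmt1 controls and 9.40, 9.31 and 9.24 FPKM in CKO cortices, which do not overlap (log2 fold change -0.12 ± 0.04 SE, adjusted p = 0.26, limma). Hdac4 was 10.2, 9.88 and 8.31 FPKM in Dnmt1 controls and 8.37, 8.64 and 8.42 FPKM in CKO cortices, and it passed the test only when Dnmt1 control replicate 3, its lowest control, was left out. Hdac6 and Hdac10 of class IIb and Hdac11 of class IV lay between -0.05 and 0.08.

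Of the PRC2 genes, Ezh2 had the lowest log2 fold change of the 38, and Ezh1, which encodes the catalytic subunit of resting cells, the highest after Suv39h2. Ezh2 was 2.30, 2.27 and 1.95 FPKM in Dnmt1 controls and 1.98, 1.88 and 1.67 FPKM in Dnmt1 CKO cortices (log2 fold change -0.23 ± 0.10 SE, adjusted p = 0.36, limma). In the Dnmt3a line it was 2.43, 2.16 and 2.04 FPKM in controls and 2.66, 2.63 and 2.40 FPKM in CKO cortices (0.21 ± 0.09 SE, adjusted p = 0.66, and 0.19 without the library labelled Dnmt3a control replicate 2). Ranges overlap in each line, although the differences point in opposite directions. The interaction was -0.44 ± 0.13 (SE, 95% interval -0.73 to -0.14, adjusted p = 0.21, limma) and -0.42 without the library labelled Dnmt3a control replicate 2. Ezh1 was 7.02, 7.50 and 7.09 FPKM in Dnmt1 controls and 7.99, 7.52 and 7.53 FPKM in CKO cortices, separated by a narrow margin (0.09, adjusted p = 0.45). The scaffold subunit genes Eed and Suz12 differed by -0.08 and -0.03.

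None of the remaining H3K9 and heterochromatin genes passed the test. Setdb1, the methyltransferase gene of the KAP1 pathway, its partner Trim28, and Ehmt1 and Ehmt2 differed by -0.05 to 0.01 on the log2 scale, and Cbx1, Cbx3 and Cbx5, whose products bind H3K9 methylation, by -0.09 to -0.06. The demethylase genes Kdm1a, Kdm4a and Kdm6b lay between -0.10 and 0.01 and Prmt5, the symmetric arginine dimethyltransferase gene, at 0.02. Of the acetyltransferase genes, Kat2b was 4.54, 4.17 and 4.18 FPKM in Dnmt1 controls and 3.78, 4.06 and 3.76 FPKM in CKO cortices (-0.15, adjusted p = 0.35, limma). Crebbp, Ep300 and Kat2a lay between -0.09 and 0.06.

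In the Dnmt3a line, which addresses the same question for the methyltransferase that sets new methylation, none of the 38 genes passed 10% FDR, beside 2 of all symbols (0.0142%). The deleted gene Dnmt3a did not pass in this line either (adjusted p = 0.66, limma), so a count of 0 here says little. At an unadjusted p under 0.05 in limma there was 1 of the 38, Crebbp, beside 7.35% of all symbols, and the smallest adjusted p among the 38 was 0.66. Intervals lay within ± 0.25 for 26 genes and within ± 0.5 for 37, the exception being Hells. Without the library labelled Dnmt3a control replicate 2 the count was also 0.

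Crebbp was 9.998, 10.14 and 9.342 FPKM in Dnmt3a controls and 8.74, 7.83 and 8.79 FPKM in Dnmt3a CKO cortices. The groups do not overlap, and the difference was -0.22 ± 0.06 (SE) with an adjusted p of 0.66 in limma, or -0.19 without the library labelled Dnmt3a control replicate 2. In the Dnmt1 line its values were 8.06, 8.93 and 9.43 FPKM in controls and 8.97, 8.56 and 9.98 FPKM in CKO cortices, and the interaction of 0.27 did not pass (adjusted p = 0.36). Hdac9 was 10.7, 10.2 and 10.2 FPKM in Dnmt3a controls and 8.34, 9.61 and 10.2 FPKM in Dnmt3a CKO cortices, where the groups are divided by a margin smaller than the rounding here (-0.15, adjusted p = 0.70, limma). That difference was -0.16 without the library labelled Dnmt3a control replicate 2, and -0.07 without Dnmt3a CKO replicate 1, the lowest library. Crebbp and Hdac9 were the 2 of 38 genes without overlap in this line, beside 12.8% of all symbols.

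**Figure D4:**
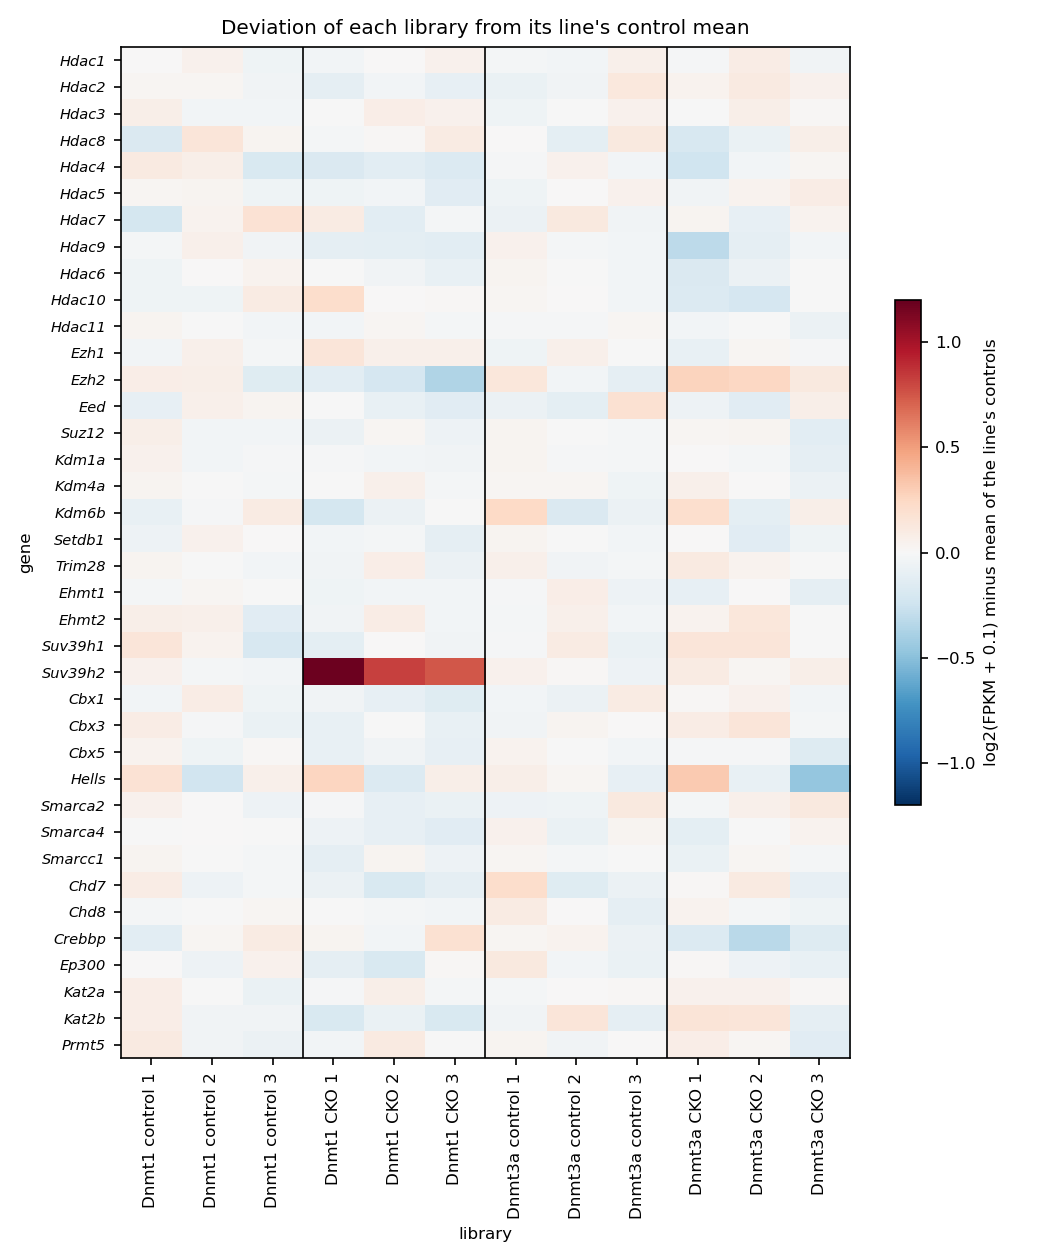
Deviation of each library from the mean of its own line's controls, on the log2(FPKM + 0.1) scale, for the 38 genes (rows) and 12 libraries (columns, vertical lines between groups). The 3 Dnmt1 CKO columns of Suv39h2 stand out in red, and the next strongest shades belong to single libraries of Hells and Ezh2.

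The CKO effect differed between the lines for 1 of the 38 genes, Suv39h2, beside 299 of all symbols (2.12%), and the count was also 1 without the library labelled Dnmt3a control replicate 2. At an unadjusted p under 0.05 in limma there were 3, Suv39h2, Ezh2 and Crebbp, beside 10.6% of all symbols. The controls of both lines, which share strain and age, differed for none of the 38 genes at 10% FDR, as for none of all symbols (0%), with 3 of the 38 (Cbx1, Hdac2 and Suv39h1) at an unadjusted p under 0.05 in limma beside 8.13% of all symbols. Without the library labelled Dnmt3a control replicate 2 the count was also 0. Between these controls only Smarca4 of the 38 was without overlap, beside 12.6% of all symbols. All 12 markers of myelinating oligodendrocytes were higher in the Dnmt3a than in the Dnmt1 controls without overlap (median log2 difference 0.35, from 0.26 to 0.46). Each of them had an unadjusted p under 0.05 in limma, and none passed 10% FDR. What part this difference between the controls has in the interactions was not tested.

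The 38 genes varied little within groups, next to the change of Suv39h2. The coefficient of variation within groups ran from 2.16% (Hdac11) to 20.0% (Hells) with a median of 4.76%, and was under 10% for 35 genes. The ratio of the highest to the lowest of the 4 group means had a median of 1.07, and after Suv39h2 at 2.09 and Ezh2 at 1.39 the next was Kat2b at 1.24. The summed level of the 38 genes was 574 to 604 FPKM in Dnmt1 controls, 569 to 589 in Dnmt1 CKO, 576 to 583 in Dnmt3a controls and 572 to 592 in Dnmt3a CKO cortices, ranges that overlap.

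Other genes of the same systems were read from a list of 137 symbols, of which 133 were tested. The list was made up of sirtuins, corepressor and NuRD subunits, Polycomb genes, demethylases, methyltransferases, SWI/SNF, ISWI and INO80 subunits, acetyltransferases and arginine methyltransferases. In the Dnmt1 line 2 of the 133 fell (1.5%, beside 2.3% of all symbols), none rose, and the median was -0.03. In the Dnmt3a line none passed, with or without the library labelled Dnmt3a control replicate 2. At an unadjusted p under 0.05 in limma there were 11 in the Dnmt1 line (8.27%, beside 15% of all symbols), which is not more than the background. All 11 values lay below 0, as did 92 of the 133 (69.2%, beside 58.6% of all symbols), among them the Polycomb gene Pcgf5 at -0.20 and the demethylase gene Kdm4c at -0.14 (adjusted p = 0.23 and 0.21, limma).

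The genes that fell were Sirt2 and Setd8. Sirt2, a sirtuin deacetylase that is abundant in oligodendrocytes and myelin, was 139, 122 and 114 FPKM in Dnmt1 controls and 76.5, 83.5 and 76.9 FPKM in CKO cortices, all below the controls. It fell by 0.66 ± 0.08 (SE) on the log2 scale (adjusted p = 0.017, limma), and in the Dnmt3a line it was 126 to 145 FPKM in controls and 135 to 159 FPKM in CKO cortices (0.10, or 0.14 without the library labelled Dnmt3a control replicate 2). Setd8, now named Kmt5a, encodes the monomethyltransferase of histone H4 lysine 20 and was 11.1, 11.5 and 10.8 FPKM in Dnmt1 controls and 8.91, 8.64 and 8.42 FPKM in CKO cortices (log2 fold change -0.36 ± 0.04 SE, adjusted p = 0.013, limma). In the Dnmt3a line it ran from 11.6 to 12.2 FPKM in controls and from 11.2 to 11.6 FPKM in CKO cortices, with no overlap (-0.05, adjusted p = 0.78, and -0.06 without the library labelled Dnmt3a control replicate 2). The myelinating oligodendrocyte markers fell in the same Dnmt1 CKO libraries, and their part in the fall of Sirt2 and Setd8 was not tested.

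**Figure D5:**
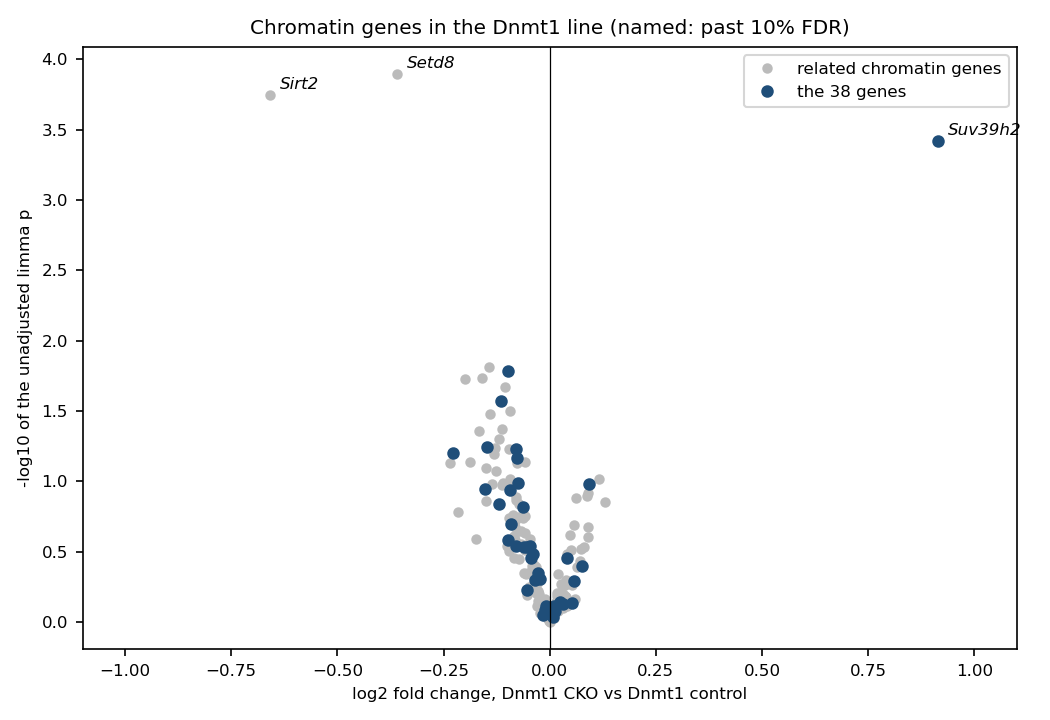
Log2 fold change in the Dnmt1 line against -log10 of the unadjusted limma p, for the 38 genes (dark) and the related chromatin genes (grey), with names for those past 10% FDR. Suv39h2 stands alone on the right at 0.91, with Sirt2 and Setd8 on the left at -0.66 and -0.36.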

How the data were processed

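TopHat (alignment to mm10) and Cufflinks (expression) were run by the authors, who deposited FPKM values for 12 libraries, made from about 250 ng of total RNA each with a TruSeq RNA kit (program versions and any strand setting are not given in the sources used here). Their own calls, made with Cuffdiff, were not used here. The deposited FPKM values are not counts, which excludes count models. The reads behind a value were not estimated, and steps between low values give relative depths of 0.856 to 1 across libraries.

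Of 23850 rows, 302 exact duplicates were removed, and 14115 rows (14075 symbols) whose mean reached 0.5 FPKM were tested. Values on the log2(FPKM + 0.1) scale were compared with limma 3.58.1 in R 4.3.3 (lmFit, eBayes with a mean-variance trend), each CKO with its own controls, with Benjamini-Hochberg adjustment over all rows tested and a 10% FDR. Fold changes on this scale understate those of low genes. The interaction and the comparison of controls used all 12 libraries. Error values are SD over mice or SE of the fit, as marked.

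The 38 genes and the lists were chosen with earlier results of these data known. All 38 are named. Values in every library are given for those past the threshold, for the 3 with the smallest p in each CKO comparison, and for further genes without overlap, chosen after their values were seen (likewise Hdac4 and Suv39h1). Related genes past the threshold are named, and Pcgf5 and Kdm4c were picked after their values were seen. Of the 137 related symbols, 2 were not found in the table and 5 were matched by an older symbol.

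The procedure was tested on simulated data for the Dnmt1 line with 14115 rows: it recovered 69.1%, 93.9% and 97% of genes changed by 0.5, 1 and 2 on the log2 scale, with 11 false calls. For the interaction it recovered 57.4%, 95.5% and 97%, with 24 false calls. The simulated noise was independent between libraries, with the same spread for a gene in all groups, which real libraries need not follow. Results were recomputed with pseudocounts of 1 and 0.01, with the minimum mean at 0.1 FPKM, at 1 FPKM and absent, with eBayes untrended or robust, with median-ratio rescaling, quantile normalization, sums per symbol, a replicate block, an Xist covariate, 1 model of all 12 libraries, missing in place of 0, 5% FDR, and without each library. Positions are from the annotation of GRCm38 and promoter windows from RefSeq. Tables were handled in pandas 2.3.3 and numpy 2.4.6 and plotted in matplotlib 3.10.9, under Python 3.11.15.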

Additional observations from a re-analysis of the deposited data

Results flagged for a closer look

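For 3 of 171 chromatin genes tested, the 38 and the 133 related ones, the CKO effect differed between the Dnmt1 and the Dnmt3a line by a direct test, the limma interaction over 12 libraries. This share of 1.75% is near the 2.12% of all symbols. The effect in the Dnmt1 line minus that in the Dnmt3a line was 0.8497 on the log2 scale for Suv39h2 (adjusted p = 0.018), where all 3 Dnmt1 CKO libraries lay above the other 9. For Sirt2 it was -0.7551 (adjusted p = 0.0066) and for Setd8 -0.3119 (adjusted p = 0.016, limma), each with all 3 Dnmt1 CKO libraries below the other 9. Without the library labelled Dnmt3a control replicate 2 the values were 0.84, -0.80 and -0.30, and all 3 genes also passed.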

How the results depend on the processing

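The count of the 38 genes past 10% FDR in the Dnmt1 line was 1, and it ran from 0 to 2 when single libraries were left out. Without Dnmt1 control replicate 2 it was 0, since Suv39h2 gave 0.90 with an adjusted p of 0.13 (limma), and without Dnmt1 control replicate 3 it was 2, with Hdac4 added. Under the other alternatives it stayed at 1, and the fold change of Suv39h2 ran from 0.61 (pseudocount 1) to 0.96. The median over the 38 genes in the Dnmt1 line, -0.0422, became -0.0195 after rescaling by median ratio and -0.0154 after quantile normalization, and ran from -0.05 to -0.0253 with single libraries left out. The interaction of Suv39h2 passed in all 25 alternatives that gave a value (0.57 to 0.94, adjusted p 0.011 to 0.055, limma).

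Same-numbered libraries did not deviate together (correlations from -0.0792 to 0.0352), so the numbers do not pair the mice. With the replicate block the interaction count of the 38 genes was 2, with Ezh2 added (-0.44, adjusted p = 0.047, limma), and the count in the Dnmt1 line stayed at 1 (Suv39h2, adjusted p = 0.092). The Dnmt3a line and the controls kept a count of 0 throughout. Over all symbols the Dnmt1 line had 443 calls, 161 with the replicate block, 262 at 5% FDR and 198 to 339 with single libraries left out. The count was 543 with robust eBayes, 542 with quantile normalization, 521 with median-ratio rescaling and 608 with all 12 libraries in 1 model. The Dnmt3a line had 2, with 20 when no filter was used and otherwise 1 to 5. The controls had 0, and 3 with no filter. With all 12 libraries in 1 model Dnmt1 also passed in the Dnmt1 line (-0.27, adjusted p = 0.097). No result reversed, and the causes of these shifts were not tested. The number of libraries limits the precision, and no counting error could be given.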
